A study of Mus musculus with 8 samples.

Results

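Phosphodiesterases end cyclic nucleotide signals, and the 10 genes described here encode phosphodiesterases that hydrolyse cAMP: Pde1a, Pde3a, Pde3b, Pde4a, Pde4b, Pde4d, Pde7a, Pde7b, Pde8a and Pde10a. They were examined for peaks of the transcription factor KLF13 in HT22, an immortalised mouse hippocampal cell line. Their peaks were taken as the entries of the deposited annotated peak list whose gene symbol is 1 of the 10, and a gene with no entry has no assigned peak. By this rule 12 of the 9506 peaks in the list belonged to these genes, spread over 8 of the 10.

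The study had 4 libraries from chromatin streptavidin precipitation (ChSP) and 4 input libraries, which had no precipitation. All 8 came from HT22-BirA cells, which stably make the bacterial biotin ligase BirA, transfected with the pTO-Klf13Bio plasmid for a biotin-tagged KLF13 and taken 24 h later. KLF13 was therefore supplied from a plasmid in every library, and none of the 8 is a pulldown from cells without the tagged protein, so KLF13 binding and other capture on streptavidin cannot be told apart at any peak. The list gives 1 fold of ChSP over input, 1 p and 1 adjusted p per peak over all libraries, all of them the authors' values. The depth is unknown and no value per library is given, so no fold below has a replicate error, and no difference between peaks could be tested. Coordinates are on GRCm38.

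In cells, adenylyl cyclases make cAMP, protein kinase A and Epac respond to it, and phosphodiesterases break it down, so that the mix of phosphodiesterases in a cell sets how high and how long a cAMP signal runs. Each family differs in what it cleaves and what regulates it. Many of the genes use several promoters to make long and short proteins that carry different regulatory domains. In hippocampal neurons, cAMP signalling through protein kinase A and the factor CREB is known for its part in synaptic plasticity and memory, and inhibitors of the PDE4 enzymes raise it.

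The promoter sequences below are from some of the starts that lay in a peak and some of the starts without one. They are RefSeq windows on GRCm38.p6, each of 300 bases, running 5′ to 3′ on the gene's strand with the annotated start at base 251. The set holds 16 windows for 7 of the 10 genes. It has none for Pde3a, Pde3b and Pde7a, which all had peaks near a start. Nor does it have a window at the Pde4d peak over a start or at the downstream Pde4a peak. Capitals mark every match, on either strand, of the GC box GGGCGG or of the C-rich box CCNCNCCC, a pair of motif types that KLF and Sp proteins are known to bind. Matches of both boxes can overlap and then run together. The first 3 windows lay wholly inside a peak: Pde4a at chr9:21165464-21165763 (plus strand), Pde8a at chr7:81213015-81213314 (plus strand) and Pde10a at chr17:8801495-8801794 (plus strand).
Pde4a: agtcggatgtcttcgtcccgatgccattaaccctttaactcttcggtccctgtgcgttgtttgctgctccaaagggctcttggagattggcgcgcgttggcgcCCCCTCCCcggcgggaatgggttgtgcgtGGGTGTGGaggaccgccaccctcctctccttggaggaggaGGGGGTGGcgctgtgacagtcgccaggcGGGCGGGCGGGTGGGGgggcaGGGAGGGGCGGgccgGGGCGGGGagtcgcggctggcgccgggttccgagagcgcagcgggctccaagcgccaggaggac
Pde8a: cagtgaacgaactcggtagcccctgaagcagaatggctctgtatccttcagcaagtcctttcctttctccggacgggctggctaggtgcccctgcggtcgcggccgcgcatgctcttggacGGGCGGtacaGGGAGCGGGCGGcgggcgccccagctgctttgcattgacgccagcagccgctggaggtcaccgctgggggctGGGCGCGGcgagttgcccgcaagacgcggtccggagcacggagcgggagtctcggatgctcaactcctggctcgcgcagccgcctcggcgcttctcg
Pde10a: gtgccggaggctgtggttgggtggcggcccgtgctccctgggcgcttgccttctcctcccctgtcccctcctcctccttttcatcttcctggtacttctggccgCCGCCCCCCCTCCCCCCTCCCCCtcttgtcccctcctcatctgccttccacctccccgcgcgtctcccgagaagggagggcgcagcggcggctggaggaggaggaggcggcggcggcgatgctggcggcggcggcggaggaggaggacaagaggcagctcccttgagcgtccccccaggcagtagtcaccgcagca

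The next 4 had no peak. Downstream starts of the same genes were taken for Pde4a at chr9:21183851-21184150 and Pde10a at chr17:8849735-8850034 (both plus strand), to set a start with a peak beside a start without one. Pde7b at chr10:20548279-20548578 and Pde1a at chr2:80129363-80129662 (both minus strand) are from the genes with no assigned peak. For Pde1a the window of the most upstream of 4 listed starts is shown.
Pde4a: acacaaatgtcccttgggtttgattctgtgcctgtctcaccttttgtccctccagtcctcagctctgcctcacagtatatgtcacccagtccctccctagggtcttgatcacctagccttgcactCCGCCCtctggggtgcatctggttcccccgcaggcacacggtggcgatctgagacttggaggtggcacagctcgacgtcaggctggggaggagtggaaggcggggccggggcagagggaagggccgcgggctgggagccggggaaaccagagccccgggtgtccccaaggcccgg
Pde10a: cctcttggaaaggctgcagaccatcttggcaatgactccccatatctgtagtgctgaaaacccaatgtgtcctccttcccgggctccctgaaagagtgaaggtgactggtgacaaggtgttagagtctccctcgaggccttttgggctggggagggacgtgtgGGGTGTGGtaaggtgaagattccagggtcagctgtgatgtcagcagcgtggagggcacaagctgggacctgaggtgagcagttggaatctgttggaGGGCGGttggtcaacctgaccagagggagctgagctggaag
Pde7b: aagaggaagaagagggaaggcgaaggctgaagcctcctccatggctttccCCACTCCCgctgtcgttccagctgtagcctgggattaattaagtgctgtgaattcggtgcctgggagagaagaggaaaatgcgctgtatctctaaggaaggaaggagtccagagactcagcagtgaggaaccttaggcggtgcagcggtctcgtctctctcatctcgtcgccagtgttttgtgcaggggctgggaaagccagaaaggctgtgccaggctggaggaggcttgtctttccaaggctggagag
Pde1a: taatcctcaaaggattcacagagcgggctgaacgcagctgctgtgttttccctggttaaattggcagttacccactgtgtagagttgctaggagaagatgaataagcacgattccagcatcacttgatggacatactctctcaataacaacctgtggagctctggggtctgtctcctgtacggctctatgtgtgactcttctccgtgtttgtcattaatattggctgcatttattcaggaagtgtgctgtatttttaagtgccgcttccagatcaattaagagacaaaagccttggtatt

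Of the 10 genes, 7 had a promoter peak, meaning an assigned peak no farther than 1 kb from a transcription start (TSS), against 30.9% of the 21900 protein-coding genes of the RefSeq gene table. These were Pde3a, Pde3b, Pde4a, Pde4d, Pde7a, Pde8a and Pde10a. All 10 genes are long, between 47.5 kb for Pde4a and 1302 kb for Pde4d, and among the 5163 protein-coding genes at least as long as Pde4a 53.1% had a promoter peak. With any assigned peak the count was 8 of 10, against 33.6% of protein-coding genes, the added gene being Pde4b with an intronic peak. With peaks that overlap a TSS of the authors' annotation it was 5 of 10, against 25.8%, since the peaks of Pde3a and Pde8a lay beside the start that this annotation gives, although 1 Pde8a peak covered the RefSeq start. Only 4 genes, Pde4a, Pde4d, Pde7a and Pde10a, had a promoter peak when the list was reduced to the 4753 peaks of smallest p, where the share of protein-coding genes was 18.6%. The same 4 genes were the ones with any assigned peak in that reduced list, against 19.6% of protein-coding genes.

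**Figure D1:**
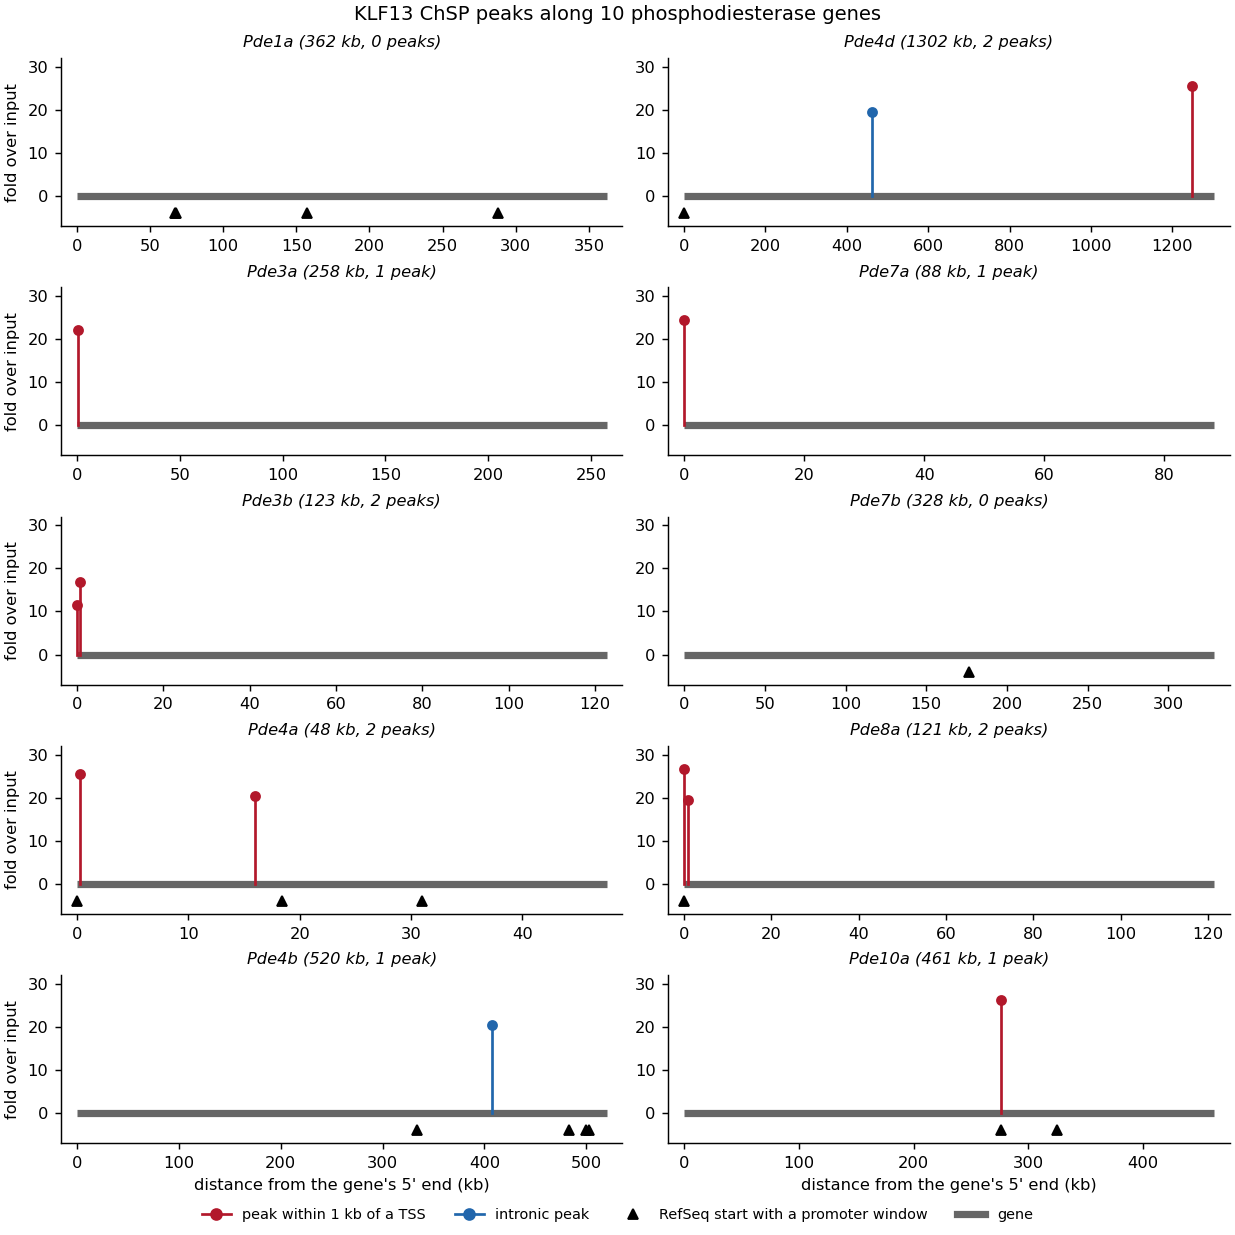
Each panel is 1 gene, drawn from its 5′ end in the RefSeq gene table (x axis, kb). Stems give the position and the fold over input (y axis) of each assigned peak, red within 1 kb of a TSS and blue in an intron, and triangles are RefSeq starts with a promoter window. Peaks of Pde3a, Pde3b, Pde7a and Pde8a sit at the 5′ end, while those of Pde4d and Pde10a lie far inside, and Pde1a and Pde7b have none.

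The PDE4 genes encode cAMP-specific enzymes, the targets of rolipram, and are known for their many promoters. Pde4a (ENSMUSG00000032177) had a peak at each of 2 starts. The upstream peak, at chr9:21165401-21166500, had a fold of 25.6 (the authors' p = 1.06e-13, adjusted p = 8.8e-11). It was 1100 bp wide and ran from 313 bp before to 786 bp after the start of transcript uc009oki.2 at the gene's 5′ end. The lncRNA gene Gm36118 in the RefSeq table also overlapped this peak. The downstream peak, at chr9:21181401-21181900, had a fold of 20.4 (the authors' p = 1.03e-09) over the start of transcript uc009okj.2, 15.9 kb into the gene. That start was not among the RefSeq windows: the nearest RefSeq start of Pde4a lay 2.20 kb from the peak, and neither of the downstream Pde4a windows was touched by a peak.

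Pde4d (ENSMUSG00000021699) encodes an enzyme known to be held in place by several scaffold proteins. Its promoter peak, at chr13:109902401-109903400, had a fold of 25.5 (the authors' p = 7.4e-13). It did not lie at the gene's 5′ end but 1249 kb downstream of it, over the start of the transcript uc007rvl.2, which spans only the last 52.7 kb of the gene. The peak lay almost wholly upstream of that start, from -901 to 98 bp. The microRNA gene Mir1904 lay 0.409 kb from this peak. The RefSeq window at the 5′ end of Pde4d had no peak. A second peak, at chr13:109116501-109117100 in intron 3 of the 16 introns of transcript uc007rvg.2, had a fold of 19.5 (the authors' p = 1.36e-09) and lay -143.7 kb from the nearest TSS in the authors' annotation.

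Pde4b (ENSMUSG00000028525), a gene known for its induction in inflammatory cells, had no promoter peak. Its only peak was 300 bp wide, at chr4:102494401-102494700 in intron 4 of the 6 introns of transcript uc008twi.1, with a fold of 20.4 (the authors' p = 7.77e-08). It lay -75.4 kb from the nearest TSS in the authors' annotation and 72.8 kb from the nearest of 4 RefSeq starts. The 4 RefSeq windows of Pde4b had no peak. Intronic peaks were assigned to 2 of the 10 genes, against 1.23% of protein-coding genes and 3.43% of those at least as long as Pde4a. Pde4b, at 520 kb, and Pde4d, at 1302 kb, are far longer than the 47.5 kb of Pde4a. No share was computed for genes of their length. The folds of the Pde4b and Pde4d intronic peaks were above the median of 16.7 over all 337 intronic peaks and below their upper quartile of 21.8. Both peaks lay inside their own gene and overlapped no other gene of the RefSeq table, whose nearest entries were the lncRNA gene Gm52668, 13.5 kb from the Pde4b peak, and the pseudogene Gm18923, 46.7 kb from the Pde4d peak.

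Pde7a (ENSMUSG00000069094) encodes a cAMP-specific enzyme that rolipram does not block. Its peak, at chr3:19310801-19311800, had the smallest p of the 12 (the authors' p = 8.63e-19, adjusted p = 1.84e-15) with a fold of 24.5. It was centred on the TSS, from -478 to 521 bp. The paralogue Pde7b had no assigned peak, and none lay within its gene bounds at chr10:20397052-20725078. Its RefSeq start lies inside those bounds and had no peak either.

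Pde8a (ENSMUSG00000025584) encodes a high-affinity cAMP-specific enzyme. It had a pair of peaks separated by 200 bp, at chr7:81213001-81213700 and chr7:81213901-81214500. The upstream one had the highest fold of the 12 peaks, 26.6 (the authors' p = 7.98e-10), and the downstream one 19.5 (the authors' p = 1.13e-10). The TSS that the authors' annotation assigned to both peaks, at 81213804, fell in the gap between them. The RefSeq start lay 0.539 kb upstream of that TSS, inside the peak of higher fold, and its whole window was covered.

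The PDE3 enzymes cleave cAMP and are inhibited by cGMP, and PDE3B is known for its part in insulin action in fat cells. Their 3 peaks had the largest p of the 12, apart from the Pde4b peak, whose p lay between theirs. Pde3a (ENSMUSG00000041741) had 1 peak, 400 bp wide at chr6:141249701-141250100, with a fold of 22.1 (the authors' p = 3.68e-07), which began 432 bp after the TSS and overlapped the lncRNA gene Gm28523 as well. Pde3b (ENSMUSG00000030671) had a pair separated by 300 bp. The one over the TSS, at chr7:114415201-114415400, was 200 bp wide and had the lowest fold and the largest p of the 12 (fold 11.5, the authors' p = 3.4e-06, adjusted p = 0.000872). The lncRNA gene 4933406I18Rik lay 0.04 kb from that peak. The next, at chr7:114415701-114416400, had a fold of 16.9 (the authors' p = 7.33e-08) and began 447 bp after the TSS. The largest p in the whole list was 9.99e-06, so the peak over the Pde3b start was near the limit of what was listed.

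Pde10a (ENSMUSG00000023868) encodes an enzyme that cleaves cAMP and cGMP and is known for its abundance in striatal neurons. Its peak was the widest of the 12, 1600 bp at chr17:8800601-8802200, with a fold of 26.4 (the authors' p = 3.83e-15). It ran from 1144 bp before to 455 bp after a start 277 kb into the gene as RefSeq bounds it, the same start as the RefSeq window shown above. A second RefSeq start of Pde10a, at 8849985, had no peak. Pde1a, which encodes a calmodulin-stimulated enzyme acting on cAMP and cGMP, had no assigned peak, none inside its bounds at chr2:79834453-80196522, and none at its 4 RefSeq windows.

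**Figure D2:**
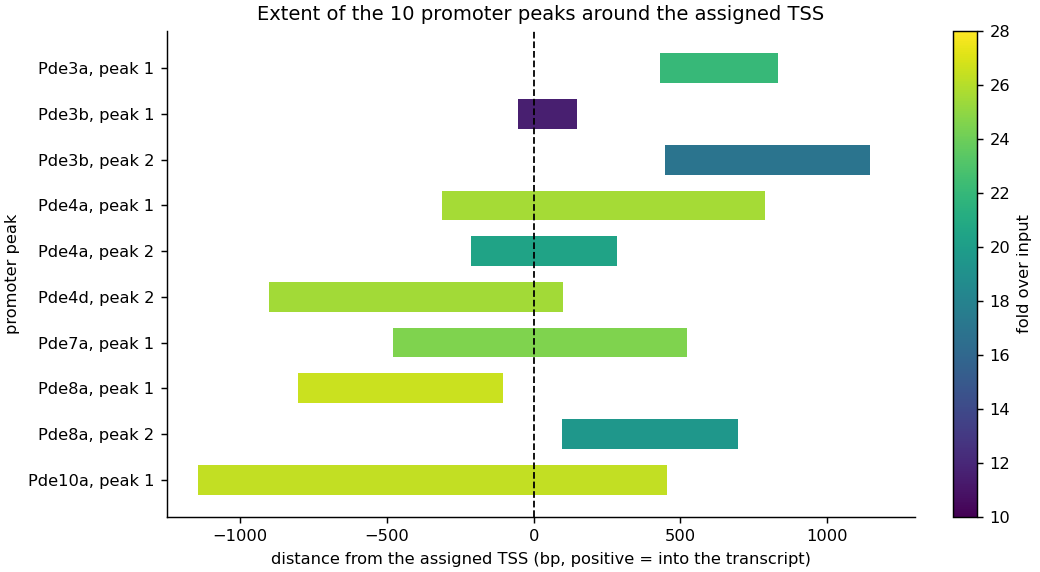
Bars show where each of the 10 promoter peaks begins and ends relative to the TSS that the authors' annotation assigned to it (x axis, bp, positive into the transcript), coloured by fold over input. The peaks of Pde4a, Pde4d, Pde7a and Pde10a and the first of Pde3b cross the dashed line at the TSS. The Pde8a pair flanks it, and the Pde3a peak and the second Pde3b peak begin 432 and 447 bp after it.

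Several of these genes had more than 1 promoter peak. Of the 7 with a promoter peak, Pde3b, Pde4a and Pde8a had 2, while 7.45% of the 6769 protein-coding genes with a promoter peak had 2 or more. That share covers genes of all lengths, and none was computed for the long ones. In Pde3b and Pde8a the pair lay around 1 start, with folds that differed 1.47-fold and 1.36-fold within the pair. These pairs were separated by only 300 bp and 200 bp. Whether each is 1 region that the caller split was not tested. The share of 7.45% counts close peaks separately too. Only in Pde4a were the promoter peaks more than 1 kb apart. They were 14.9 kb apart and marked different transcripts, with folds that differed 1.25-fold. Over the whole list, 12.9% of peaks had another peak within 1 kb.

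The folds of the 10 promoter peaks ran from 11.5 at Pde3b to 26.6 at Pde8a with a median of 23.3, beside a median of 22.2 (quartiles 16.5 and 30.3) over all 7599 promoter peaks. Of the 10, 5 were above the median of all promoter peaks and 0 above the upper quartile. The Pde8a upstream peak had a fold above 65.4% of promoter peaks, the Pde10a peak above 64.7% and the upstream Pde4a peak above 62.3%. The lower Pde3b peak was above 7.47% of them. Taking the strongest promoter peak of each gene, the median was 25.5 over the 7 genes and 22.8 over all genes with a promoter peak. In the list reduced to the 4753 peaks of smallest p the order turned, with a median of 25.6 over the 4 phosphodiesterase promoter peaks left and 28.2 over all promoter peaks left.

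Fold and p ordered the genes differently. The Pde8a upstream peak led by fold, but 65.5% of all listed peaks had a smaller p. The Pde7a peak was below 4 of the other promoter peaks by fold and led by p, with 20.6% of all peaks having a smaller one. The peaks of Pde10a, the upstream Pde4a start and Pde4d followed, with 33.8%, 40.5% and 45.0%. Those 4 peaks were 1000 to 1600 bp wide and the other 8 were 200 to 700 bp wide. Over all promoter peaks, which are not replicates, Spearman's rho was 0.766 between width and the negative logarithm of p, 0.761 between fold and that logarithm, and 0.664 between fold and width. The part of width in the order of these p was not tested.

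**Figure D3:**
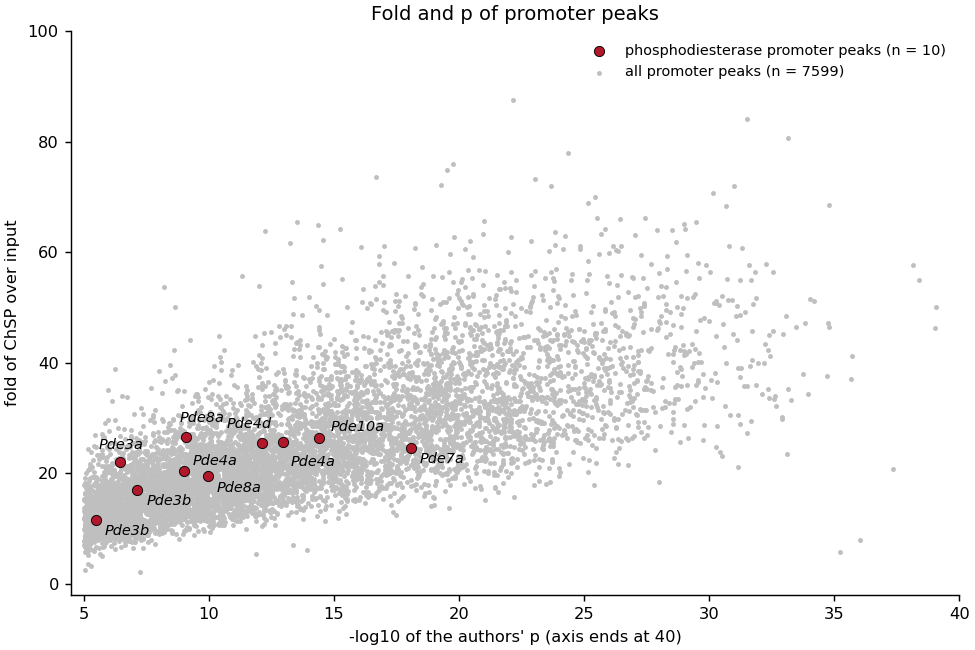
Each point is a promoter peak, with the negative decimal logarithm of the authors' p on the x axis and the fold of ChSP over input on the y axis. The 10 phosphodiesterase peaks are red, all 7599 promoter peaks grey, and 4 grey peaks lie beyond the axis end of 40. The red points lie between folds of 11.5 and 26.6, with Pde7a farthest to the right.

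The windows with and without a peak differed in base composition. They differed in place too. Of the windows in peaks, those of Pde4a and Pde8a lie at the gene's 5′ end and that of Pde10a 277 kb inside. The windows without a peak lie inside their gene, except that of Pde4d, which is at the 5′ end. The part of start position was not tested. No window was available at the promoter peaks of Pde3a, Pde3b, Pde4d and Pde7a, or at the downstream Pde4a peak. The windows of Pde4a, Pde8a and Pde10a that lay wholly in a peak were 70.0%, 68.7% and 71.3% G or C, and held 29, 34 and 23 CpG dinucleotides. The 13 other windows of these genes, none of which was touched by a peak, had a median G or C content of 47.0% (range 39.7% to 64.0%) and 1 to 13 CpG. For these genes the ranges did not overlap between the 3 windows in peaks and the 13 without. Across all genes the medians had the same order. They were 72.3% G or C and 35 CpG over the 2954 windows wholly in a peak, and 52.7% and 7 CpG over the 15517 without one. But across all genes the ranges overlapped, and a range widens with the number of windows. Windows wholly in a peak ran from 47.0% to 88.0% G or C and held 11 to 65 CpG. Those without one ran from 12.3% to 89.3% and held 0 to 67 CpG. Windows lying wholly in a peak made up 3 of the 16 for these genes, against 13.9% of the 21263 windows of protein-coding genes.

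GC and C-rich boxes followed that order. The upstream Pde4a window held 4 matches of GGGCGG, at -50, -46, -24 and -14 bp counted from the start to the first base of the match, and 6 of CCNCNCCC. The Pde8a window held 2 of each, and the Pde10a window 1 GGGCGG and 5 CCNCNCCC that overlap in 1 run. Of the 13 windows without a peak, 2 held GGGCGG, at the downstream starts of Pde4a and Pde10a, and 6 held CCNCNCCC. Over all genes GGGCGG was in 92.1% of windows wholly in a peak and 32.6% of windows without one, beside 46.2% of all windows. CCNCNCCC was in 91.6% and 46.3%, beside 56.6% of all windows. Both boxes are made of G and C, so their counts move with base composition, whose part was not tested.

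The cAMP response element TGACGTCA, the site of CREB proteins, was in 0 of the 16 windows, and in 2.23% of all windows. Its core TGACG was in 4 of the 16: the Pde8a window at -84 bp, the first downstream Pde4a window, 1 Pde4b window and 1 Pde1a window. It was in 23.6% of all windows. TGACG is contained in the full element, and no match says only that these letters are not in a window of this length.

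**Figure D4:**
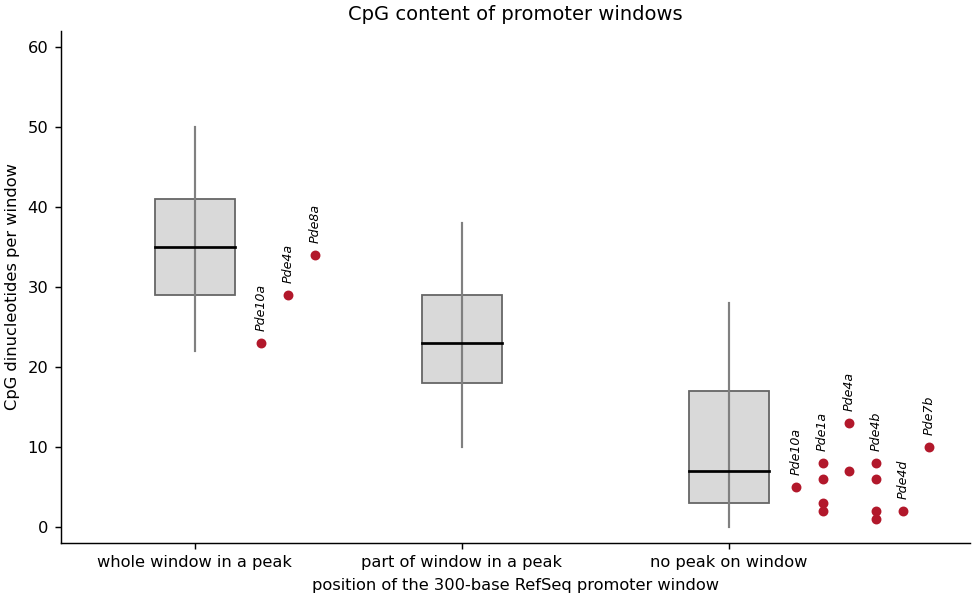
The y axis is the number of CpG dinucleotides per 300-base RefSeq promoter window, for windows wholly in a peak, partly in a peak or with no peak. Boxes give the quartiles and median over all protein-coding genes and lines the 5th to 95th percentile, and red points are the windows of the named genes. The windows of Pde8a, Pde4a and Pde10a in peaks hold 34, 29 and 23 CpG, and the 13 windows without a peak hold 1 to 13.

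The phosphodiesterase list holds further genes beyond these 10. Of the 14 other genes of the cyclic nucleotide phosphodiesterase list, which is not limited to genes for catalytic subunits, 6 had a promoter peak. The share was 30.9% of all protein-coding genes and 53.1% of those at least as long as Pde4a. Some of the 14 are shorter than Pde4a, down to 5.89 kb. Pde8b, the paralogue of Pde8a, had a fold of 24.9, and Pde2a and Pde1b, whose enzymes cleave cAMP and cGMP, had 26.2 and 23.0. The cGMP-specific Pde9a and Pde5a had 25.2 and 12.2, and the dual-specificity Pde11a had 12.2. Pde6b, a rod photoreceptor gene, had 2 assigned peaks and no promoter peak: they lay -20.7 and -20.1 kb from its TSS, with folds of 22.6 and 19.4. The authors' annotation classed the first as distal intergenic. It placed the second in a 5′ UTR, although that peak lay upstream of the Pde6b TSS. The remaining 7, Pde1c, Pde4c, Pde6a, Pde6c, Pde6d, Pde6g and Pde6h, had no assigned peak. Over all 24 genes 13 had a promoter peak, beside the same shares, and the highest fold among them was the 26.6 of Pde8a.

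The counts that follow stand beside the same 30.9% of all protein-coding genes and 53.1% of the long ones. Some of the 28 other genes of the pathway are shorter than Pde4a, down to 10.3 kb. So are some of the genes for anchoring proteins below, down to 9.90 kb. Among the 28, 21 had a promoter peak. By role, these were 6 of 10 adenylyl cyclase genes, 2 of 2 stimulatory G protein genes, 6 of 6 protein kinase A subunit genes, 0 of 2 Epac genes and 7 of 8 CREB factor and coactivator genes. The median of the strongest promoter fold per gene was 25.5 over the 7 phosphodiesterase genes, 18.5 over the adenylyl cyclases, 30.2 over the kinase subunits and 29.5 over the CREB group. The highest of the 28 were Atf1 with 37.4, Crtc3 with 36.8 and Crebbp with 36.1, all above any phosphodiesterase gene. Of 10 genes for anchoring proteins, which hold kinase and phosphodiesterase together at 1 place, 7 had a promoter peak, led by Akap9 with 35.1, Akap13 with 31.7 and Akap11 with 30.4. Pde4dip, named for its binding to PDE4D, had 2 promoter peaks, the stronger with a fold of 15.9. None of these differences between groups was tested, as each gene has 1 fold over all libraries.

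**Figure D5:**
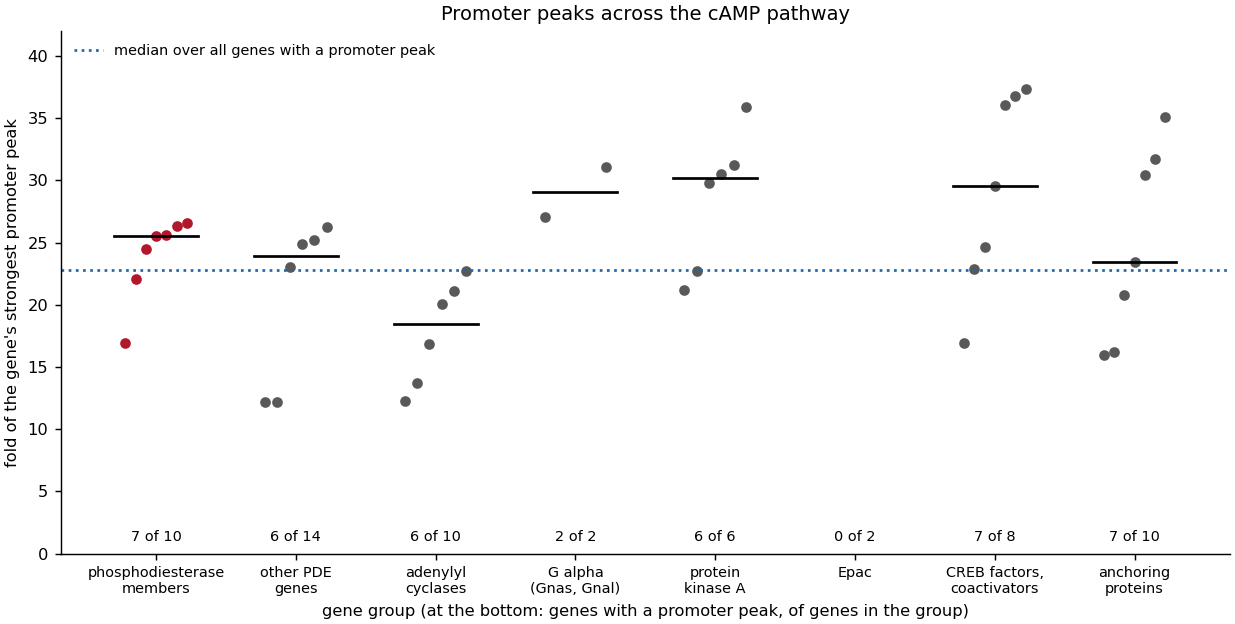
Points are genes, placed by the fold of their strongest promoter peak (y axis), in groups of the cAMP pathway along the x axis. Short lines are group medians, the dotted line is the median of 22.8 over all genes with a promoter peak, and the bottom row counts genes with a promoter peak. The 7 phosphodiesterase genes lie between 16.9 and 26.6, and protein kinase A and CREB genes reach 35.9 and 37.4.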

How the data were processed

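KLF13 ChSP and input libraries, 4 of each, were represented by 1 deposited peak list without values per library. Its name gives PePr as caller; version, settings and scaling are not stated in the sources used. The submitters' processing notes list, with no roles, HOMER 4.9.1, ChIPseeker 1.16.1, the aligner BWA 0.7.17-r1188, the read checker FastQC 0.11.3 and the build GRCm38. The fold (a linear ratio), the p-value and the adjusted p-value per peak are the authors' deposited values. The authors' score is proportional to the fold and was left out. Peak edges fall on steps of 100 bp. Read depth is unknown, and the labels do not say that libraries of a group came from separate cultures.

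Peaks were matched by gene symbol, genes to RefSeq GRCm38.p6 by gene identifier (9503 of 9506 peaks), and promoter windows by symbol. Counts, medians, percentiles and motif matches were computed with Python 3.11.15, pandas 2.3.3 and numpy 2.4.6, and the motif and overlap steps were tested on simulated data. No test was made between genes or peaks. The 10 genes and the other lists were chosen with earlier results of these data known. Named were all 10 genes, the other genes of the phosphodiesterase list and the 3 of highest promoter fold in each other list. Pde4dip was added after its values were seen. Alternatives were a list reduced to the 4753 peaks of smallest p, a list without the widest 5% of peaks, other TSS distances, gene bounds in place of assignment, 1 peak per gene and, chosen after seeing the data, a background of long genes.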

Additional observations from a re-analysis of the deposited data

How the results depend on the processing

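No paired analysis was possible because each peak has a single value over all 8 libraries, so no library could be left out either. The count of genes with a promoter peak was 7 of 10 within 1 kb of a TSS (30.9% of protein-coding genes) and 7 within 3 kb (31.6%). It was 6 without the widest 5% of peaks (29.3%), which leaves out Pde10a, and 5 over a TSS only (25.8%). It was 5 within 1 kb of either end of the RefSeq gene (31.8%), which leaves out the internal starts of Pde4d and Pde10a. With the 4753 peaks of smallest p it was 4 (18.6%), as fewer peaks were left. The count with any assigned peak was 8 (33.6%), against 4 in that reduced list (19.6%), 7 with the widest peaks left out (32.2%) and 8 by overlap with gene bounds (35.5%). The median promoter fold was 23.3, with 22.2 over all promoter peaks. It was 22.1 without the widest peaks (21.8 over all) and 25.6 with the smallest p (28.2 over all). With 1 peak per gene it was 25.5 (22.8 over all). The background of genes at least as long as Pde4a, chosen after seeing the data, changes the share beside the count and not the count of 7. Depth per library is unknown, so a gene without a peak is not shown to lack binding.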
